A study of Mus musculus with 6 samples.

Results

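Genes of the nonmuscle cytoskeleton and of cell junctions were examined in the ribosome-associated RNA of skeletal muscle endothelium with and without estradiol (E2). The members were taken by gene symbol from a list of 39 genes, of which 38 had a row among the 24062 genes of the deposited counts. They comprised 24 actomyosin genes, 7 genes of cell-matrix adhesion and 7 catenin and junction genes. The remaining symbol, Afdn, was not listed under that name, and the row Mllt4, its older symbol according to RefSeq, was described beside the members and not counted among them.

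The study isolated RNA by translating ribosome affinity purification (TRAP), in which an antibody to GFP pulls down ribosomes that carry a GFP-tagged L10a protein, followed by sequencing. All mice were labelled B6.129S4-Gt(ROSA)26Sorfm1, with the allele in brackets as (CAG-EGFP/Rpl10a; birA/Wtp/J, and per the methods a VECad-Cre transgene, active in endothelium, turned the tag on, giving GFP-L10aEC mice. They were described as ovariectomized females and received placebo pellets (vehicle) or 17β-estradiol pellets for 4 weeks, and gastrocnemius and soleus were collected from both groups. The comparison addressed how E2 changes what endothelial cells translate in muscle, with 3 libraries per group. The labels give an age of 4 weeks, and the methods place ovariectomy at a later age. Each library's label carries 2 mouse numbers, and whether the RNA of 2 mice was pooled is not stated. The methods state as many biological replicates per group as there are mouse numbers in the labels, so the libraries of a group carry different mice, and p-values measure the spread between libraries and not between mice.

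Nonmuscle myosin II slides actin filaments past each other and so gives a cell its contractile tension, which small GTPases and kinases switch on and off. Integrins, talin and vinculin anchor the filaments to the matrix, and catenins link them to cadherins where endothelial cells meet. In endothelium this machinery sets cell shape, the tightness of the vessel wall and its response to flow.

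Library depth was low and uneven. Total counts were 288838, 451034 and 84823 in vehicle replicates 1 to 3 and 125932, 198537 and 201010 in E2 replicates 1 to 3, so that 1 count was worth between 2.22 and 11.8 counts per 1000000 counts of a library (CPM). Where a member had no count, the 3 counts that a 0 still allows set its upper limit, at 6.65 CPM in the deepest library and 35.4 CPM in the shallowest, for counting error only. Vehicle replicates 1 and 2 resembled each other (Pearson's r of log2(CPM + 1) across genes 0.949), whereas vehicle replicate 3 had r of 0.569 and 0.575 with them and of 0.676 to 0.768 with the E2 libraries. Vehicle replicates 1 and 2 also held 40 and 63 counts of Y-linked genes, and the other 4 libraries held none, which goes against the description as females for those 2 libraries. Results were therefore also computed without vehicle replicate 3, and without vehicle replicates 1 and 2. The former sets only the 2 libraries with Y-linked counts against E2, so treatment and that difference coincide in it.

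The tissue label was checked against marker genes. All 15 endothelial markers had counts, with a summed level of 295 to 1015 CPM in vehicle and 143 to 677 CPM in E2 libraries. Skeletal muscle fiber markers were far more abundant, at 71891 to 110477 CPM in vehicle and 69837 to 93026 CPM in E2 libraries, and none of the 16 passed the adjusted test. Smooth muscle and pericyte markers summed to 483 to 827 CPM in vehicle and 341 to 522 CPM in E2 libraries, fibroblast markers to 554 to 648 and 517 to 604 CPM, and immune markers to 20.8 to 153 and 35.3 to 104 CPM. Of 15 squamous epithelial markers, Krt1, Krt77, Krt79, Dsg1a and Lgals7 were at 0 in every library, and the list summed to 70.7 to 97.6 CPM in vehicle and 44.8 to 79.4 CPM in E2 libraries. The part of other cell types in the levels given here was not tested. In bulk RNA, fewer cells of a type and less RNA per cell cannot be told apart.

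Several members have near-identical relatives, so shared sequence bears on how their counts are read. Actb and Actg1 encode the nonmuscle beta and gamma actins. In the spliced transcripts (GENCODE M21 on GRCm38), 14.2% of all 50-base stretches of Actb and 56.7% of those of Actg1 also occurred in another gene, for Actg1 most often in Gm12715.

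Myl12a and Myl12b, which encode regulatory light chains of nonmuscle myosin II, are neighbours on chromosome 17, at chr17:70993656-71002878 and chr17:70973133-70990890 on the minus strand. They are 96.5% identical over 516 coding bases, and bases 19 to 138 are shown with a capital at the 1 base that differs.
Myl12a: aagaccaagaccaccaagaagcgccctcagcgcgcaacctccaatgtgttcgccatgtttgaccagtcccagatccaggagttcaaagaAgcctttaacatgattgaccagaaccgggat
Myl12b: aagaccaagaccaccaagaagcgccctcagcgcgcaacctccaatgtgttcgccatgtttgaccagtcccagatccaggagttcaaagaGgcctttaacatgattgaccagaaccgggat
Shared 50-base stretches made up 29.6% of Myl12a, 33% of Myl12b and 53.2% of Myl6, the essential light chain. For Myl12b they were shared with a second gene model of the same name, which overlaps exons of Myl12b by 739 bases and of Myl12a by 462 bases on the same strand. None was shared for Rac1, Rock2, Vim, Msn, Tln1, Itgb1, Ctnnb1, Ctnna1, Jup, Dsp or Tjp1. For Ctnnd1, 73% of the stretches also belonged to the overlapping gene model Gm28635 on the same strand.

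Promoters were compared over 250 bases before to 50 bases after the start of each gene (RefSeq, GRCm38.p6), for the 33 members with an entry. The CArG box, the element bound by serum response factor, a regulator of many actin genes, was searched on both strands and was present in 4 of the 33 member genes (12.1%) and in 488 of 27025 genes (1.81%). The 4 stretches are shown 5′ to 3′ on the gene's strand with the box in capitals, at chr11:120348551-120348610 (minus) for Actg1, chr10:128493025-128493084 (minus) for Myl6, chr2:156775278-156775337 (plus) for Myl9 and chr14:20929148-20929205 (plus) for Vcl.
Actg1: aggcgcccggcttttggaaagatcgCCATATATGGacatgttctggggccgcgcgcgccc
Myl6: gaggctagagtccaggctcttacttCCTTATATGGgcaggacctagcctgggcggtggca
Myl9: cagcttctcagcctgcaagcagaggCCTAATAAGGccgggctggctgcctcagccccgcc
Vcl: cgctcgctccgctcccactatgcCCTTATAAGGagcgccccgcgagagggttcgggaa
The full estrogen response element, GGTCANNNTGACC, was in none of the 33 member promoters and in 20 of 27025 (0.074%). A match is only a match of letters in this window. None of these 4 genes passed the filter on low counts for the test between treatments.

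Across the members, the summed level was 4719, 5142 and 2169 CPM in vehicle and 1826, 2110 and 3050 CPM in E2 replicates 1 to 3. Vehicle replicates 1 and 2 stood above all E2 libraries and vehicle replicate 3 lay within the E2 range, so the groups overlapped. The ratio of the E2 mean to the vehicle mean was 0.581 for all members, 0.605 for the actomyosin genes, 0.578 for the adhesion genes and 0.386 for the catenin and junction genes. Without vehicle replicates 1 and 2 these ratios were 1.07, 1.11, 0.896 and 0.971. The CPM include counts of Rn45s, the ribosomal precursor RNA, which made up 28.5 to 33.1% of counts in vehicle and 29.9 to 42.9% in E2 libraries, and with totals that leave it out the ratio for all members was 0.651. Summed endothelial markers had a ratio of 0.54 and smooth muscle and pericyte markers of 0.691 with all libraries, in both cases with vehicle replicates 1 and 2 highest and vehicle replicate 3 within the E2 range, and their part in the members' difference was not tested.

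**Figure D1:**
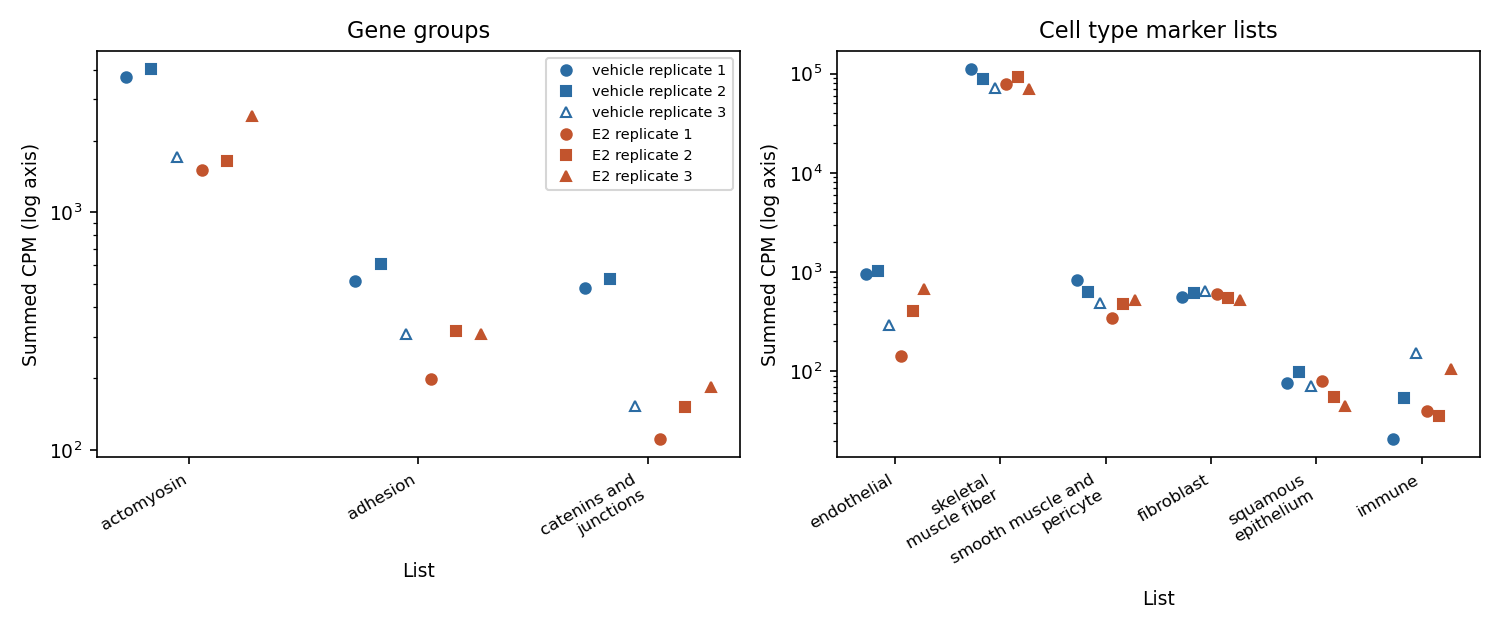
Summed level in CPM (log axes) in each of the 6 libraries for the 3 gene groups (left) and for 6 lists of cell type markers (right). Vehicle replicate 3 (open triangles) lies within the E2 range in the actomyosin, adhesion and catenin groups, and vehicle replicates 1 and 2 are also the highest for the endothelial and for the smooth muscle and pericyte markers.

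Of the 38 members, 13 passed edgeR's filter on low counts (filterByExpr) and entered the quasi-likelihood test. The other 25 did not, among them Tmsb4x and Ctnna1, whose totals of 118 and 101 counts exceed those of the tested genes Flna (83) and Rac1 (96) but lie mostly in vehicle replicates 1 and 2. None of the 13 passed an adjusted p below 0.05 in either direction, against 2.97% of the 1682 genes tested that were lower and 2.5% that were higher with E2. DESeq2 also called none, with 49 lower and 47 higher among the 1682 genes, and neither did limma-voom, with 9 lower and 63 higher. EdgeR's likelihood ratio test called Rac1 and Ctnnb1 lower, along with 9.04% of all genes. At the threshold of the study, an unadjusted p of 0.05 or less, 4 members were lower (Ctnnb1, Rock2, Rac1 and Tln1) and none was higher, where 15.1% of all genes tested were lower and 10.5% higher. The log2 fold change was below 0 for 11 of the 13 members, with a median of -0.94, and below 0 for 49.7% of all genes tested.

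Overlap was counted separately, in the 33 members with at least 10 counts in all. For 7 of them each E2 level was below each vehicle level, namely Rac1, Cdc42, Rock2, Tln1, Ctnnb1, Ctnna1 and Dsp, against 10.5% of the 6843 genes with as many counts, with counts of 0 taken as a level of 0. For Dsp this rests on 2 E2 libraries without a count, whose upper limits of 15.1 and 14.9 CPM exceed the vehicle levels of 10.4 and 11.8 CPM, so for Dsp a separation is not established. No member had every E2 level above every vehicle level, against 6.17% of those genes. For each of the 7 the exact two-sided permutation test gave p = 0.1, the smallest value that 3 against 3 libraries allow.

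**Figure D2:**
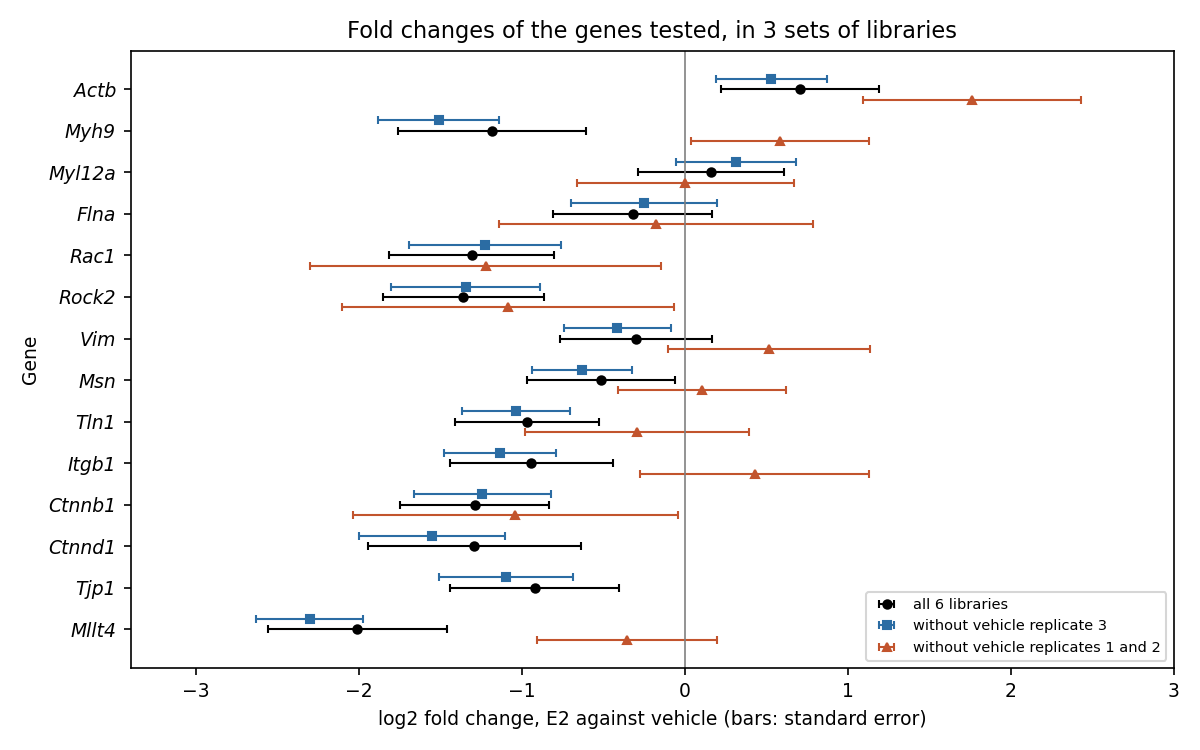
Log2 fold change of E2 against vehicle for the 13 members tested and for Mllt4, with standard errors, from all 6 libraries (black), without vehicle replicate 3 (blue) and without vehicle replicates 1 and 2 (red). Myh9, Vim, Msn and Itgb1 change sign when vehicle replicates 1 and 2 are left out, and the other genes fitted there keep theirs. Standard errors in that fit are wide, at 1.08 for Rac1, 1.02 for Rock2 and 0.997 for Ctnnb1. Ctnnd1 and Tjp1 did not pass the filter on low counts there.

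Levels between genes were compared per kilobase of exon. In vehicle libraries Msn was highest at 131 CPM per kb, followed by Myh9 at 78.7, Actb at 72.8 and Tmsb4x at 71.5, which differed less than their spread between libraries, and then by Vim at 52.2 and Itgb1 at 51.3 CPM per kb. In E2 libraries Actb led at 108 CPM per kb, then Msn at 82.5, Vim at 38.9, Myl12a at 32.1 and Myh9 at 30.5 CPM per kb. Pfn1 and Cgn were the lowest in vehicle libraries, at 0.307 and 0.192 CPM per kb, on totals of 4 and 1 counts in the 6 libraries. The median member had 53 counts in all.

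**Figure D3:**
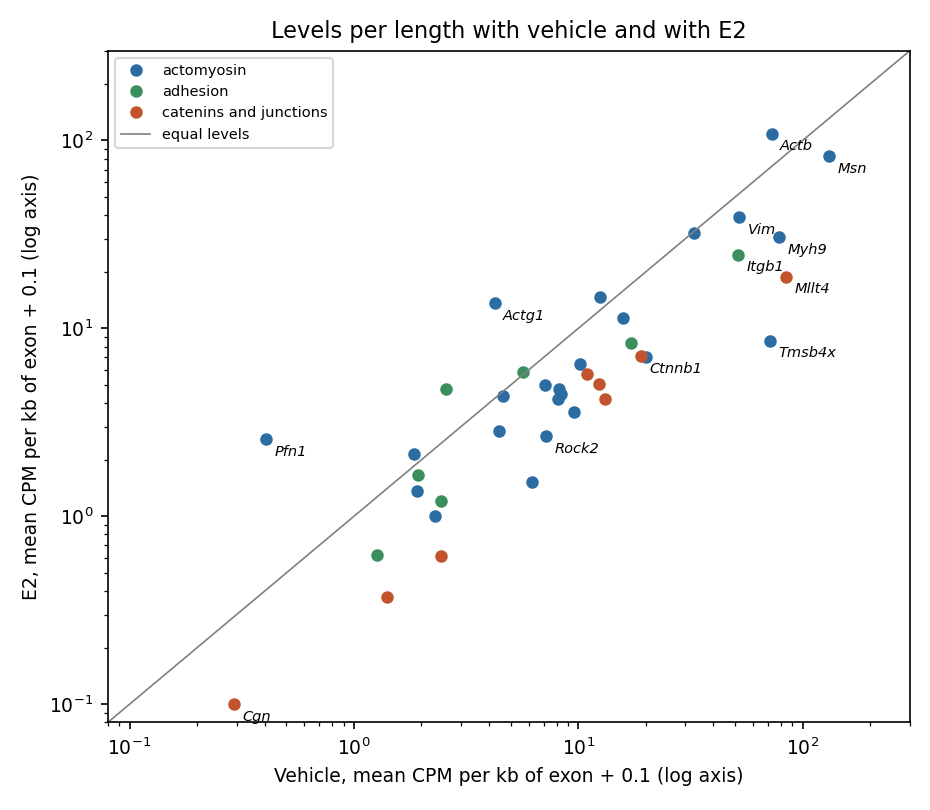
Mean level per length (CPM per kb of exon, with 0.1 added, log axes) in vehicle against E2 libraries for the 38 members and Mllt4, coloured by group, with the line of equal levels. Of the named points, Actb, Actg1 and Pfn1 lie above the line and the others below it, Tmsb4x the farthest.

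Among the actins and nonmuscle myosins, 3 of 8 genes were tested and none passed the test. Actb was at 194, 297 and 94.3 CPM in vehicle and 246, 227 and 398 CPM in E2 replicates 1 to 3. The groups overlapped, with vehicle replicate 3 lowest. Its log2 fold change of 0.71 (SE 0.49) had an adjusted p of 0.367 in edgeR's quasi-likelihood test, and it ranged from 0.36 (without E2 replicate 3) to 1.09 (without E2 replicate 2) when single libraries were left out. The study listed Actg1 among genes higher in these same libraries whose proteins E2 recruited to estrogen receptor alpha in cultured endothelial cells. Actg1 had 1, 8 and 1 counts in vehicle and 1, 7 and 13 counts in E2 replicates 1 to 3. Its levels overlapped (11 ± 7.17 against 36 ± 28.4 CPM, SD, n = 3 each) and it was too low for the test.

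Myh9, the heavy chain of nonmuscle myosin IIA, had the most counts of any member, 1223 in all. Its level was 1596, 1162 and 295 CPM in vehicle and 318, 252 and 612 CPM in E2 replicates 1 to 3. Vehicle replicates 1 and 2 were high, and vehicle replicate 3 fell among the E2 libraries. The log2 fold change was -1.18 (SE 0.58, adjusted p = 0.203 in edgeR's quasi-likelihood test) with all libraries, -1.51 without vehicle replicate 3 (adjusted p = 0.00244) and 0.59 without vehicle replicates 1 and 2 (adjusted p = 0.76). Myh10, the heavy chain of myosin IIB, had 17, 19 and 3 counts in vehicle and 2, 5 and 9 counts in E2 libraries, and was not tested.

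Of the 4 light chain genes, Myl12a was the 1 tested. It was at 111, 99.8 and 118 CPM in vehicle and 103, 80.6 and 139 CPM in E2 replicates 1 to 3, with overlapping groups and a log2 fold change of 0.16 (SE 0.45, adjusted p = 0.84 in edgeR's quasi-likelihood test), which turned to -0.04 with libraries scaled by totals only. Its exons overlap those of Myom1 on the opposite strand by 207 bases, and Myom1, a sarcomere gene, had 687 counts. No source used here gives the strand setting of featureCounts, so reads of such pairs cannot be told apart. Myl12b, Myl6 and Myl9 had 57, 45 and 22 counts in all and overlapping groups.

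The cross-linkers and turnover factors were mostly sparse. Flna, which encodes filamin A, a cross-linker of actin filaments, was the 1 gene of 6 that could be tested. Its level was 62.3, 75.4 and 58.9 CPM in vehicle and 23.8, 50.4 and 64.7 CPM in E2 replicates 1 to 3, overlapping, with a log2 fold change of -0.32 (SE 0.49, adjusted p = 0.725 in edgeR's quasi-likelihood test). Tmsb4x encodes thymosin beta 4, which binds actin monomers. It had 31, 79 and 1 counts in vehicle and 0, 3 and 4 counts in E2 replicates 1 to 3, so that vehicle replicates 1 and 2 were high and vehicle replicate 3, at 11.8 CPM, was below E2 replicates 2 and 3, at 15.1 and 19.9 CPM. E2 replicate 1, without a count, has an upper limit of 23.8 CPM and cannot be ranked against it. Actn1 and Actn4, alpha-actinins that bundle actin, had 36 and 67 counts in all, Cfl1, the filament-severing cofilin, had 27, and their groups overlapped.

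The small GTPases and their effectors included 3 of the 7 genes whose groups did not overlap. Rac1, a GTPase that drives branched actin growth at the cell edge (chr5:143503634-143528036, minus strand), was at 79.6, 106 and 82.5 CPM in vehicle and 7.94, 50.4 and 34.8 CPM in E2 replicates 1 to 3. Every E2 library lay below every vehicle library. Rac1 had a log2 fold change of -1.31 (SE 0.51, unadjusted p = 0.0186, adjusted p = 0.118 in edgeR's quasi-likelihood test). The gene shares 2309 exonic bases with Daglb on the opposite strand, which had 7 counts.

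Rock2, a kinase that raises myosin light chain phosphorylation (chr12:16894895-16987823, plus strand), was at 58.9, 155 and 82.5 CPM in vehicle and 31.8, 40.3 and 34.8 CPM in E2 replicates 1 to 3. The groups did not overlap, and the spread was wide within vehicle (98.9 ± 50.2 CPM, SD, n = 3) and narrow within E2 (35.6 ± 4.32 CPM, SD, n = 3). For Rock2 the log2 fold change was -1.36 (SE 0.49, unadjusted p = 0.0128, adjusted p = 0.0995 in edgeR's quasi-likelihood test). Its relative Rock1 had 12, 30 and 1 counts in vehicle and 3, 1 and 4 counts in E2 libraries, with overlapping groups. Cdc42, the GTPase of cell polarity and filopodia, was at 20.8, 39.9 and 23.6 CPM in vehicle and 15.9, 10.1 and 4.97 CPM in E2 replicates 1 to 3. It did not overlap either but rested on 31 counts, and vehicle replicate 1 and E2 replicate 1 were less than 1 count's worth apart. Rhoa and Rhob, with 23 and 8 counts, and Iqgap1, a scaffold for these GTPases with 35 counts, overlapped.

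Msn, Vim and Ezr represent filament and membrane linkers. Msn, moesin, ties actin to the plasma membrane and is the abundant member of its family in endothelium. It was at 869, 1089 and 531 CPM in vehicle and 461, 494 and 612 CPM in E2 replicates 1 to 3. The groups overlapped through vehicle replicate 3, and the log2 fold change was -0.51 (SE 0.45, adjusted p = 0.5 in edgeR's quasi-likelihood test). Vim, the intermediate filament of mesenchymal and endothelial cells, was at 284, 317 and 141 CPM in vehicle and 103, 237 and 214 CPM in E2 libraries, again overlapping, with a log2 fold change of -0.30 (SE 0.47, adjusted p = 0.728 in the same test). Ezr, ezrin, had 32 counts in all and overlapping groups.

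Of the 7 adhesion genes, 2 were tested. Tln1, talin 1, which activates integrins and links them to actin (chr4:43531519-43562691, minus strand), was at 201, 195 and 106 CPM in vehicle and 71.5, 101 and 69.6 CPM in E2 replicates 1 to 3. The groups did not overlap, although vehicle replicate 3 and E2 replicate 2 were within 1 count's worth of each other. Tln1 had a log2 fold change of -0.97 (SE 0.44, unadjusted p = 0.0415, adjusted p = 0.176 in edgeR's quasi-likelihood test), and of -0.29 without vehicle replicates 1 and 2. Creb3, on the opposite strand, overlaps 360 of its exonic bases and had 76 counts.

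Itgb1, integrin beta 1, the common beta chain of the matrix receptors, was at 222, 324 and 82.5 CPM in vehicle and 55.6, 121 and 124 CPM in E2 replicates 1 to 3. Vehicle replicates 1 and 2 stood above the E2 libraries and vehicle replicate 3 among them. With all libraries the log2 fold change was -0.94 (SE 0.50, adjusted p = 0.24 in edgeR's quasi-likelihood test), and 0.43 without vehicle replicates 1 and 2. Its partners Itga5 and Itga6 had 7 and 27 counts in all. Vcl, vinculin, was at 45.6 ± 11.6 CPM in vehicle and 46.9 ± 7.86 CPM in E2 libraries (SD, n = 3 each), and Pxn and Zyx, adaptors of focal adhesions, had 9 and 26 counts, all with overlapping groups.

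The catenin and junction genes had an E2 to vehicle ratio of 0.386 with all libraries and of 0.971 without vehicle replicates 1 and 2. Ctnnb1 encodes beta-catenin, which joins cadherins to the cytoskeleton and acts in Wnt signaling (chr9:120929216-120960507, plus strand). It was at 104, 109 and 82.5 CPM in vehicle and 23.8, 50.4 and 34.8 CPM in E2 replicates 1 to 3. All 3 E2 libraries were below all 3 vehicle libraries, including vehicle replicate 3. The log2 fold change was -1.29 (SE 0.46, unadjusted p = 0.011, adjusted p = 0.0928 in edgeR's quasi-likelihood test), and -1.04 without vehicle replicates 1 and 2 (adjusted p = 0.766). The study listed this gene as lower with E2 in these same libraries, so its direction is not independent evidence. The study also required that the protein leave estrogen receptor alpha with E2 in cultured human aortic endothelial cells. Ulk4 on the opposite strand overlaps it by 759 exonic bases and had 2 counts.

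Ctnna1, alpha-catenin, the actin-binding partner of beta-catenin, had 25, 59 and 3 counts in vehicle and 3, 7 and 4 counts in E2 replicates 1 to 3. The levels, 86.6, 131 and 35.4 against 23.8, 35.3 and 19.9 CPM, did not overlap, by a margin far below the worth of 1 count between vehicle replicate 3 and E2 replicate 2. Ctnnd1, p120-catenin, which stabilizes cadherins at the membrane, was at 156, 113 and 0 CPM in vehicle and 23.8, 25.2 and 59.7 CPM in E2 libraries. Vehicle replicate 3 had no count, which allows up to 35.4 CPM, below E2 replicate 3 but not to be ranked against E2 replicates 1 and 2. The fitted log2 fold change was -1.29 (SE 0.65, adjusted p = 0.22 in edgeR's quasi-likelihood test), and from -1.93 (without E2 replicate 3) to -0.79 (without E2 replicate 2) when single libraries were left out.

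Jup and Dsp, plakoglobin and desmoplakin, are desmosomal proteins, and plakoglobin also serves endothelial junctions. Jup had 8, 8 and 0 counts in vehicle and 0, 0 and 2 counts in E2 replicates 1 to 3, with overlapping groups. Dsp had 3, 7 and 1 counts in vehicle and 1, 0 and 0 counts in E2 libraries, on 12 counts in all, and its 2 E2 libraries without a count cannot be placed below the vehicle levels at this depth. Both were selected by the study on these libraries and on their proteins leaving estrogen receptor alpha with E2, as was Myh9. Tjp1, ZO-1 of tight junctions, was at 93.5, 137 and 23.6 CPM in vehicle and 31.8, 40.3 and 59.7 CPM in E2 replicates 1 to 3, with vehicle replicate 3 the lowest and a log2 fold change of -0.92 (SE 0.52, adjusted p = 0.269 in edgeR's quasi-likelihood test). Cgn, cingulin, had 1 count.

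**Figure D4:**
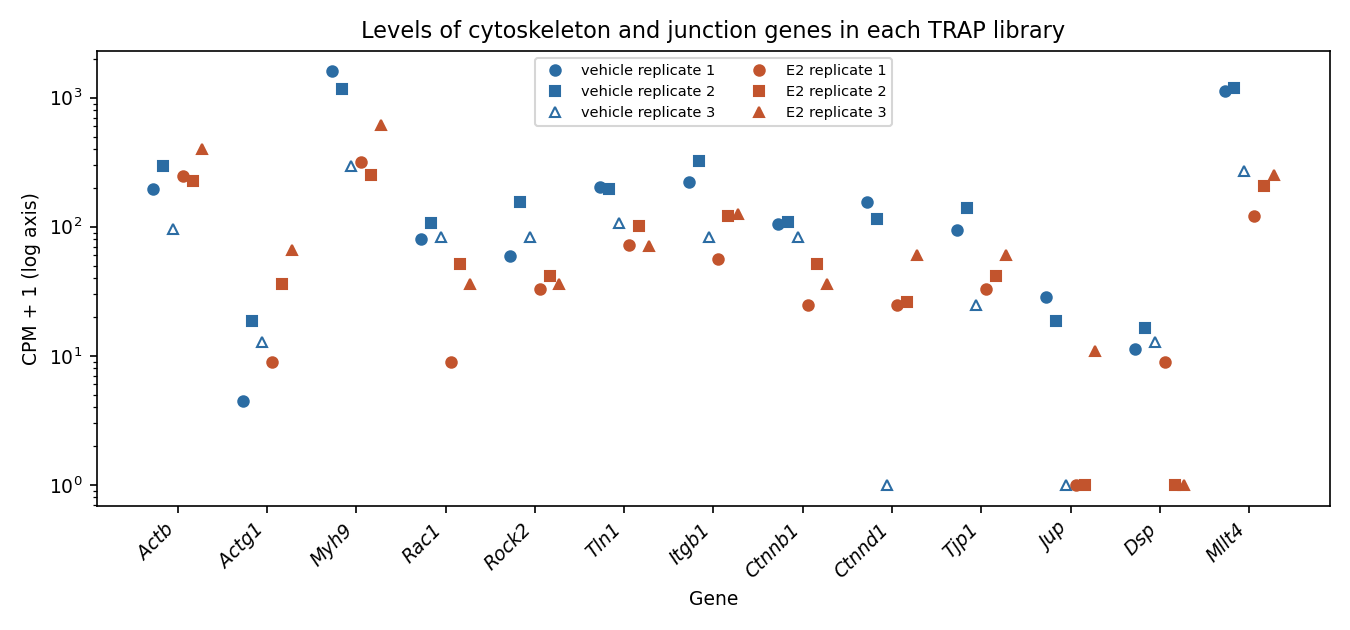
Level in each library (CPM with 1 added, log axis) of 12 members and Mllt4, vehicle in blue and E2 in red, each symbol 1 library. Rac1, Rock2, Tln1, Ctnnb1 and Mllt4 do not overlap between groups, whereas vehicle replicate 3 (open triangle) falls within or below the E2 libraries for Myh9, Itgb1 and Tjp1. Libraries without a count, as for Ctnnd1, Jup and Dsp, are drawn at 1.

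Mllt4, listed at chr17:13760539-13906150 (plus strand) as Afdn in the annotation, encodes afadin, which links nectins to actin at adherens junctions. It was at 1118, 1197 and 271 CPM in vehicle and 119, 207 and 249 CPM in E2 replicates 1 to 3. The groups did not overlap, but vehicle replicate 3 was close to E2 replicate 3. It fell by 2.01 on the log2 scale (SE 0.55, adjusted p = 0.0425 in edgeR's quasi-likelihood test). Without vehicle replicate 3 the adjusted p was 1.35e-05, without any other single library it was 0.0915 to 0.232, and without vehicle replicates 1 and 2 the log2 fold change was -0.36 with an adjusted p of 0.859.

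The outcome for the members turned on vehicle replicate 3. Without it, edgeR's quasi-likelihood test called 10 of 16 members lower at an adjusted p below 0.05, namely Rock2, Myh9, Ctnna1, Ctnnd1, Tln1, Rac1, Tjp1, Itgb1, Ctnnb1 and Tmsb4x. In that fit 24.3% of all 2162 genes tested were lower too. Its vehicle group was replicates 1 and 2, which alone held Y-linked counts (40 and 63), so treatment and that difference coincide in it. Against vehicle replicate 3 alone, with 1 vehicle library assumed to vary like the E2 libraries, none of 12 members tested was lower at an unadjusted p of 0.05 or less, where 2.88% of all genes were lower, Actb was higher, as were 7.08% of all genes, and the median log2 fold change of the members tested was 0.05 beside 0.11 for all genes.

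A further 73 genes of the same machinery, from 75 listed, gave 21 that could be tested, of which 2 were lower in the adjusted test, none was higher and 17 had a log2 fold change below 0 (median -0.48). Over all genes tested these shares were 2.97% lower, 2.5% higher and 49.7% below 0. Enah, an Ena/VASP protein that promotes filament elongation, had 33, 36 and 5 counts in vehicle and 2, 4 and 3 counts in E2 replicates 1 to 3. It fell by 2.21 on the log2 scale (SE 0.56, adjusted p = 0.0376 in edgeR's quasi-likelihood test). Ppp1r12a, the targeting subunit of myosin phosphatase, which opposes Rock2 on myosin light chain, had 73, 86 and 5 counts in vehicle and 6, 10 and 6 in E2 libraries and fell by 1.94 (SE 0.52, adjusted p = 0.038 in the same test). For both, the groups did not overlap in CPM, but for Ppp1r12a vehicle replicate 3 and E2 replicate 2 were less than 1 count's worth apart. Both calls are given with all 6 libraries only. Over all genes, the 50 lower calls fell to 2 to 11 when any single library other than vehicle replicate 3 was left out.

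At the unadjusted threshold 5 of the 21 were lower and 1 was higher, against 15.1% and 10.5% of all genes. The linker proteins Plec and Dst had log2 fold changes of -1.43 and -1.37 (adjusted p = 0.0791 and 0.0794 in edgeR's quasi-likelihood test), with groups that did not overlap. The focal adhesion kinase Ptk2 had -1.67 (adjusted p = 0.0966 in the same test). Ptk2 had 40, 65 and 1 counts in vehicle and 7, 4 and 5 counts in E2 replicates 1 to 3. Its groups overlapped, with vehicle replicate 3 the lowest. Ilk, integrin-linked kinase, had 1.07 (adjusted p = 0.138 in the same test) and overlapping groups. Of 14 endothelial junction genes in the counts, only Cdh5, VE-cadherin, the partner of the catenins, could be tested. Cdh5 had 54, 131 and 14 counts in vehicle and 6, 37 and 75 counts in E2 replicates 1 to 3, a log2 fold change of 0.13 (SE 0.56, adjusted p = 0.906).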

How the data were processed

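Ribosome-associated RNA of 3 vehicle and 3 E2 libraries was sequenced. Per the submitters' processing notes, the authors used bcl2fastq (2.17) and FastQC (0.11.2) on the reads, STAR (2.5.3a) for mapping to mm10 and featureCounts from Subread (1.6.0) for counting. The deposited values are raw counts per gene symbol. The library kit is a stranded kit for total RNA in the labels, which also name polyA RNA, and a ribosome profiling kit in the methods. Groups came from the labels.

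From the counts, E2 was compared with vehicle by edgeR (4.0.16, R 4.3.3) with filterByExpr, TMM and the quasi-likelihood test, with Benjamini-Hochberg adjustment over 1682 genes. CPM used library totals, and overlap was counted for genes with at least 10 counts. Alternatives used DESeq2 (1.42.0) and limma-voom (limma 3.58.1). Gene positions, exon lengths and transcripts came from GENCODE M21, in which 22750 of 24062 symbols were found, and promoters from RefSeq. The code was tested on simulated counts. The named genes are all members by role, the 75 other pathway genes and the marker lists. The members and lists were chosen with earlier results of these data known.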

Additional observations from a re-analysis of the deposited data

How the results depend on the processing

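Of the members, 13 passed the filter on low counts and 25 did not. The number of members tested was 38 with no filter and 4 with at least 10 counts in every library, and 14 to 17 when single libraries were left out. Members lower at an adjusted p below 0.05 numbered 1 with no filter (Tmsb4x; 0.939% of all genes), 2 by edgeR's likelihood ratio test (Rac1 and Ctnnb1; 9.04% of all genes), 1 with Mllt4 counted as Afdn, and 0 to 10 without single libraries (10 without vehicle replicate 3, where 24.3% of all genes were lower). At an unadjusted p of 0.05 or less, 8 were lower with libraries scaled by totals only, where the median of all genes was -0.15 and 18.7% of them were lower, then 11 lower (6.81% of all genes) and 1 higher (Actg1; 3.27% of all genes) with no filter, 0 lower with 10 counts in every library (15.4% of all genes), and 2 to 10 lower without single libraries (8.2 to 27.6% of all genes). Members whose groups did not overlap numbered 7 to 18 lower (12.5 to 28.9% of all genes) and 0 to 2 higher (7.89 to 14% of all genes) without single libraries, the 18 standing against 28.9%. Across those settings the median log2 fold change of the members tested was -1.20 to -0.61, and the ratio of summed levels was 0.472 to 0.676 (actomyosin 0.493 to 0.701, adhesion 0.491 to 0.671, catenins and junctions 0.296 to 0.469).

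Without vehicle replicates 1 and 2, a setting chosen after seeing the data, 0 members were lower (2.88% of all genes) and 1 (Actb) higher (7.08% of all genes) at the unadjusted threshold, and of 33 members 9 lay below vehicle replicate 3 in all E2 libraries (28.4% of all genes) and 4 above it (26.1%). The median log2 fold change was 0.054 (actomyosin 0.10, adhesion 0.069, and -1.04 for Ctnnb1, the 1 catenin or junction gene tested there), the ratios of summed levels were 1.07, 1.11, 0.896 and 0.971 in the order above, and Myh9 (0.59), Vim (0.52), Msn (0.10) and Itgb1 (0.43) changed sign. Myl12a changed sign with totals only (-0.038), with 10 counts in every library (-0.061), without vehicle replicate 2 (-0.037) and without E2 replicate 3 (-0.13), and without E2 replicate 1 so did Flna (0.019) and Vim (0.053). Without single libraries Myl12a rose to 0.54, and Flna and Vim fell to -0.66 and -0.45. In these fits Actb and Ctnnd1, given with their levels, moved by over 1.5 times without changing sign. So did Myh9 (-1.71 to -0.73) and Msn (-0.68 to -0.25), both highest without E2 replicate 2. Itgb1 (-1.15 to -0.59) did too, highest without E2 replicate 1. Rock2 (-1.68 to -0.90) and Tjp1 (-1.25 to -0.57) were highest without vehicle replicate 2. Without vehicle replicates 1 and 2, so moved Actb (1.76), Tln1 (-0.29), Flna (-0.18) and Myl12a (0.0031). The cause of these changes was not tested. Mllt4 had adjusted p of 0.0708 with 10 counts in every library and 0.0618 by limma-voom.

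The replicate numbers are not stated to pair the libraries. Correlations of deviations from the group means were -0.127, 0.0161 and -0.189 between same-numbered libraries and -0.204 to 0.183 between the others. With 3 libraries per group these values cannot show whether the numbers pair them. With the replicate number as a block, 0 members were lower at an adjusted p below 0.05, 3 at the unadjusted threshold (Rock2, Rac1 and Ctnnb1; 10.1% of all genes), and Mllt4 had a log2 fold change of -1.89 with an adjusted p of 0.171; over all genes 1 was lower and 7 higher, against 50 and 42 without the block.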
